A study of Mus musculus with 22 samples.

Results

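The chaperonins are barrel-shaped protein folding machines, and the genes followed here are those of their subunits: Tcp1, Cct2, Cct3, Cct4, Cct5, Cct7 and Cct8 of the cytosolic chaperonin CCT (also called TRiC), and Hspd1 and Hspe1 of the mitochondrial chaperonin. The members were taken by gene symbol, with every probe set that carries the symbol alone. That gave 9 genes of the 6437 tested and 24 of the 22690 probe sets on the array, of which 19 passed the filter on dim probe sets (log2 above 4 on at least 4 arrays).

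Arrays of the type MOE430A were hybridised with RNA of B cells from C57Bl/6 mice at 3 stages. The wild type group (n = 4), titled B220+, and the premalignant group (n = 5), titled B lymphocytes, are cells of littermates 4 to 6 weeks old. The premalignant ones carry the Eμ-Myc transgene. The malignant group (n = 13) is lymphomas from independent Eμ-Myc mice, and its labels carry the same age. In Eμ-Myc mice an immunoglobulin heavy chain enhancer drives Myc in B lineage cells, so the transgene marks both the premalignant and the malignant group and no wild type array. The cells came from bone marrow or spleen on beads against B220 or IgM, and the sources used here give neither tissue nor bead array by array. Whether wild type or premalignant replicates came from separate mice is not in the labels, so the p-values measure only the spread between these samples.

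CCT takes up newly made proteins in a cavity lined by related but different subunits and closes over them with a lid built into the subunits themselves. Actins and tubulins depend on it, and so do WD40 proteins such as the mitotic regulator Cdc20, with prefoldin handing many of them over. The mitochondrial machine works differently: Hspd1 (Hsp60) forms the barrel, Hspe1 (Hsp10) is a separate lid, and both are made from nuclear genes and imported. Both machines are known for heavy use in cells that grow and divide.

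Hspd1 and Hspe1 stand head to head on mouse chromosome 1, so that a single short stretch lies upstream of both. In the RefSeq annotation of GRCm38.p6, Hspd1 spans chr1:55077833-55088243 on the minus strand and Hspe1 chr1:55088148-55091317 on the plus strand. Hspd1 has 2 annotated starts, at 55087932 and 55088243, and the second lies inside Hspe1. The 215 bases between the first of them and the Hspe1 start are shown because the paired genes changed unequally on the arrays. They are written in the direction of Hspe1, with matches to GAANNTTC or TTCNNGAA, the pattern of the heat shock element, in capitals.

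Hspd1-Hspe1 chr1:55087933-55088147: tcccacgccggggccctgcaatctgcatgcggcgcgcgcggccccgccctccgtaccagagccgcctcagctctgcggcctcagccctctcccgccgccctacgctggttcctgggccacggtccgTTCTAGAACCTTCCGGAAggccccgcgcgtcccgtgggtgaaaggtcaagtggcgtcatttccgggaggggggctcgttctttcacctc

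The capitals are 3 overlapping matches that form a run of 18 bases with 4 alternating TTC and GAA units, from position -89 to -72 counted from the Hspe1 start. Over all 32851 RefSeq windows of 250 bases upstream of a start, 12.8% held the pattern on either strand and 0.466% held at least 3 alternating units. A promoter entry matched 8 of the 9 members by symbol, and Cct4 is the member without one. In at least 1 of their windows, 4 members held GAANNTTC (Cct2, Cct5, Hspd1 and Hspe1), the matches of Hspd1 and Hspe1 being the same run. CCAAT or its reverse complement ATTGG was held by 3 (Tcp1, Cct3 and Cct7), a motif found in 33.8% of all windows. CACGTG, the letters of the E-box to which Myc binds, was in 6.0% of all windows and in 1 of the 11 windows of members, that of the Hspd1 start inside Hspe1. Upstream sequences of Cct3, which rose at both steps, and Cct5, which rose at the first, are set side by side in transcript direction. The capitals mark ATTGG in Cct3 and the heat shock pattern in Cct5. Both genes were picked by their changes. Among other members that rose at both steps, Cct8 held neither motif and Hspd1 held the heat shock pattern.

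Cct3 chr3:88297000-88297134, plus strand: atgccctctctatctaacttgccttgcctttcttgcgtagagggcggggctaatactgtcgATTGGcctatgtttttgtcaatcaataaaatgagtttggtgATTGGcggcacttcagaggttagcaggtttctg
Cct5 chr15:31601847-31601996, minus strand: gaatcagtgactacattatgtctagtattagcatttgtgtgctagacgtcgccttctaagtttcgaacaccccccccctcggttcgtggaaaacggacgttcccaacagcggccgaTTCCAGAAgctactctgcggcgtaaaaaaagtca

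These letters are a description of the windows, and no binding was measured here.

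Levels below are log2 GCRMA intensities of the brightest probe set of each gene. Levels of different genes are not compared, since probe sets differ in brightness. Myc, the gene of the transgene, served as a check of the labels. It lay between 6.74 and 7.39 on the wild type arrays, 9.53 and 10.21 on the premalignant and 8.67 and 10.76 on the malignant arrays, so that every transgenic array was above all wild type arrays. Sums of B cell markers fell from stage to stage, though not every gene did. Of 6 B lineage genes, 5 passed the filter and Pax5 did not. Ebf1 had mean levels of 8.22 in wild type, 7.42 in premalignant and 7.74 in malignant arrays. The summed linear intensity of the 6 genes ran from 21400 to 25600 in wild type, 15500 to 19700 in premalignant and 3240 to 8810 in malignant arrays. Summed over 8 genes of mature B cells it ran from 7120 to 8010, from 2310 to 3240 and from 318 to 1660. Of 15 genes of dividing cells, 14 were called higher at the first step and 12 at the second (12.7% and 24.8% of all genes were). The sum of the 15 ran from 370 to 854, from 1930 to 5240 and from 4260 to 6870. For 10 stroma and endothelium genes, 7 of which were tested, the sum was 291 to 324, 159 to 216 and 388 to 4110. At the second step 5 of the 7 were called higher and 1, Pecam1, lower (24.8% and 17.3% of all genes were). The sum of 6 plasma cell genes was 2670 to 4600, 1240 to 3200 and 222 to 922, and that of 11 monocyte and macrophage genes 3530 to 5680, 1570 to 4220 and 1470 to 6380. Of 9 tested monocyte and macrophage genes, 2 were called higher at the second step, Lyz2 among them, and 3 lower, with the same shares over all genes. The sum of 11 neutrophil genes was 96.1 to 662, 470 to 955 and 84.3 to 6230, with a median log2 change of 1.49 over the 5 tested at the first step. None of these 5 was called by limma there, and 4 had an unadjusted p under 0.05. For 8 T cell genes the sum was 422 to 711, 279 to 542 and 62.9 to 326, and for 7 erythroid genes 51.7 to 669, 49.2 to 2120 (median 57.1) and 45.0 to 49.8. Only 1 gene of the T cell list, Cd2, had group means above log2 4, so the sum mostly follows Cd2 and cannot stand for T cells. Its mean level was 8.87 in wild type, 8.56 in premalignant and 6.05 in malignant arrays. The T cell genes Cd3d, Cd3e, Cd3g and Cd8a were under the filter. RNA quality moved with the second step too: the log2 difference between the 3′ and 5′ probe sets of beta-actin was 0.77 ± 0.10 (SD, n = 4) in wild type, 0.70 ± 0.09 (SD, n = 5) in premalignant and 1.93 ± 0.37 (SD, n = 13) in malignant arrays. The part of these marker and quality differences in the changes of the members was not tested. In RNA of whole samples, fewer cells of a type and less RNA per cell cannot be told apart. Wild type replicate 2 and premalignant replicate 1 correlated least with their own groups (mean r 0.956 and 0.938), and values without them are given where a call rests on them.

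The first comparison asks what changed with the transgene before lymphoma. Most chaperonin subunit genes were higher in premalignant than in wild type cells. Upward calls were made for 7 of the 9 members by limma, with p-values adjusted over the 6437 genes (Benjamini-Hochberg, threshold 0.05), where 12.7% of all genes had such a call. Hspd1 rose most, 2.40-fold, followed by Cct3 (1.88-fold), Cct8 (1.79-fold) and Tcp1 (1.62-fold). Cct5 rose 1.48-fold, Cct2 1.47-fold and Hspe1 1.36-fold, while Cct7 and Cct4 did not pass the test. The median log2 change was 0.60 over the 7 CCT members, against -0.05 over all genes tested.

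**Figure D1:**
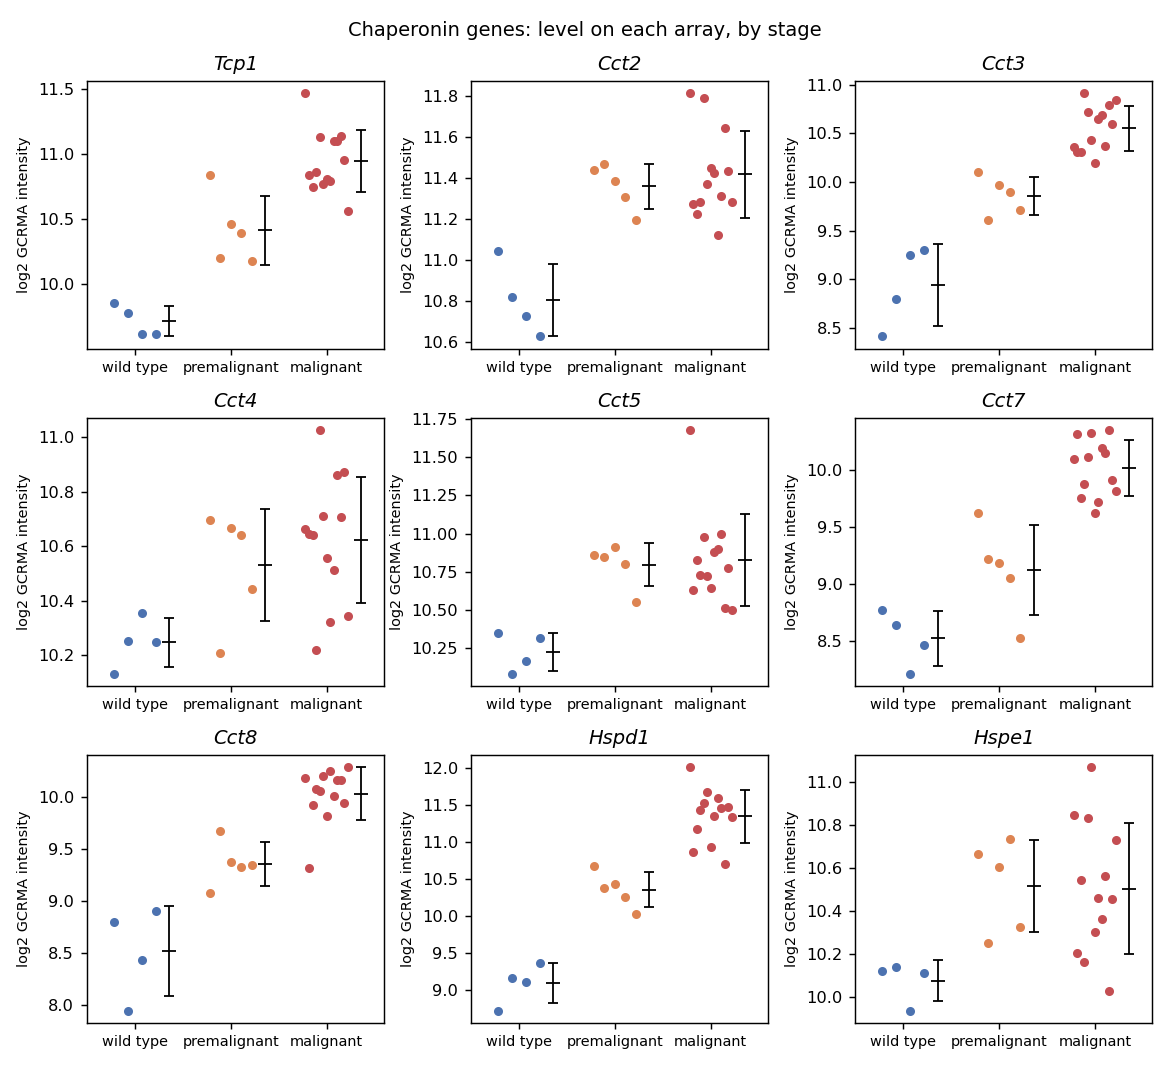
Log2 GCRMA intensity (y axis, a separate scale in each panel) of each chaperonin gene on each array, by stage, with black bars for the mean ± SD. All 13 malignant arrays lie above all premalignant arrays for Hspd1 and Cct3, whereas in Cct2, Cct4, Cct5 and Hspe1 these stages overlap.

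Hspd1 had levels of 8.72, 9.16, 9.11 and 9.36 on the wild type arrays. On the premalignant arrays it had 10.68, 10.37, 10.44, 10.26 and 10.03. No premalignant array reached down to the wild type range, and the log2 change was 1.26 (SE 0.17, limma adjusted p = 0.0006). Its partner Hspe1 had 10.12, 10.14, 9.94 and 10.11 in wild type, and 10.66, 10.25, 10.60, 10.73 and 10.32 in premalignant arrays. Those groups did not overlap either, but the change was smaller, 0.44 on the log2 scale (SE 0.14, limma adjusted p = 0.0396). The call of Hspe1 was lost when any of 7 single arrays was left out (each wild type array, and the premalignant arrays numbered 1, 3 and 4), with adjusted p between 0.0585 and 0.106. It was also lost with quantile normalization (0.36, adjusted p = 0.0739), with centring on the hybridisation spikes (0.81, adjusted p = 0.0870) and in 1 fit over all 3 groups (0.44, adjusted p = 0.0849). A fit with a block for each replicate number lost it too (0.49, adjusted p = 0.0762). That replicate block uses only arrays whose number occurs in both groups.

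Among the CCT genes, Cct3, which encodes the gamma subunit, had levels of 8.42, 8.80, 9.25 and 9.30 in wild type and 10.10, 9.61, 9.96, 9.90 and 9.71 in premalignant cells. The groups did not overlap, with a log2 change of 0.91 (SE 0.20, limma adjusted p = 0.0072). Cct8, the theta subunit, had 8.79, 7.94, 8.43 and 8.90 in wild type and 9.08, 9.68, 9.38, 9.32 and 9.34 in premalignant cells. Again no array overlapped, although the lowest premalignant array, replicate 1, stood close to the highest wild type array, and the log2 change was 0.84 (SE 0.20, limma adjusted p = 0.0128). With the replicate block Cct8 was not called (0.85, adjusted p = 0.0602). Tcp1, which encodes the alpha subunit, had 9.85, 9.78, 9.62 and 9.61 against 10.84, 10.20, 10.46, 10.39 and 10.18, a log2 change of 0.70 (SE 0.16, limma adjusted p = 0.0085).

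Cct2, the beta subunit, lay between 10.63 and 11.04 in wild type and between 11.19 and 11.47 in premalignant cells, and Cct5, the epsilon subunit, between 10.08 and 10.35 and between 10.55 and 10.91. The log2 changes were 0.56 (SE 0.13, limma adjusted p = 0.0101) and 0.57 (SE 0.13, limma adjusted p = 0.0081). On the hybridisation spike scale Cct2 had 0.92 and was not called (adjusted p = 0.0522). Both genes kept their groups apart, so that 7 of the 9 members separated the arrays completely upward, as 11.2% of all genes did. Cct7, the eta subunit, had 8.78, 8.64, 8.22 and 8.47 in wild type and 9.62, 9.22, 9.19, 9.05 and 8.53 in premalignant cells. Premalignant replicate 5 fell among the wild type arrays, and the log2 change of 0.60 (SE 0.21, limma adjusted p = 0.0585) missed the threshold. Without that array it was 0.75 with an adjusted p of 0.0138, and 5 of 10 other settings also called it. The replicate block, 1 of these 5, leaves out the same array. Cct4, the delta subunit, had 10.13, 10.25, 10.35 and 10.25 in wild type and 10.70, 10.21, 10.67, 10.64 and 10.44 in premalignant cells, a log2 change of 0.28 (SE 0.14, 95% confidence interval of the fold 0.986 to 1.50, limma adjusted p = 0.153). Without both wild type replicate 2 and premalignant replicate 1, 6 members were called higher, Hspe1 being the one lost (adjusted p = 0.0722).

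The second comparison asks what changed between premalignant cells and lymphoma. It shares the premalignant arrays with the first, so the 2 sets of changes are not independent and are set side by side only. Some of the chaperonin genes rose again at this step. Hspd1 (1.99-fold), Cct7 (1.86-fold), Cct3 (1.62-fold), Cct8 (1.59-fold) and Tcp1 (1.45-fold) were called higher in malignant cells, 5 of the 9 members where 24.8% of all genes were called higher. Cct2, Cct4, Cct5 and Hspe1 were not called and had log2 changes between -0.01 and 0.09. The median log2 change was 0.53 over the CCT members and 0.09 over all genes tested.

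**Figure D2:**
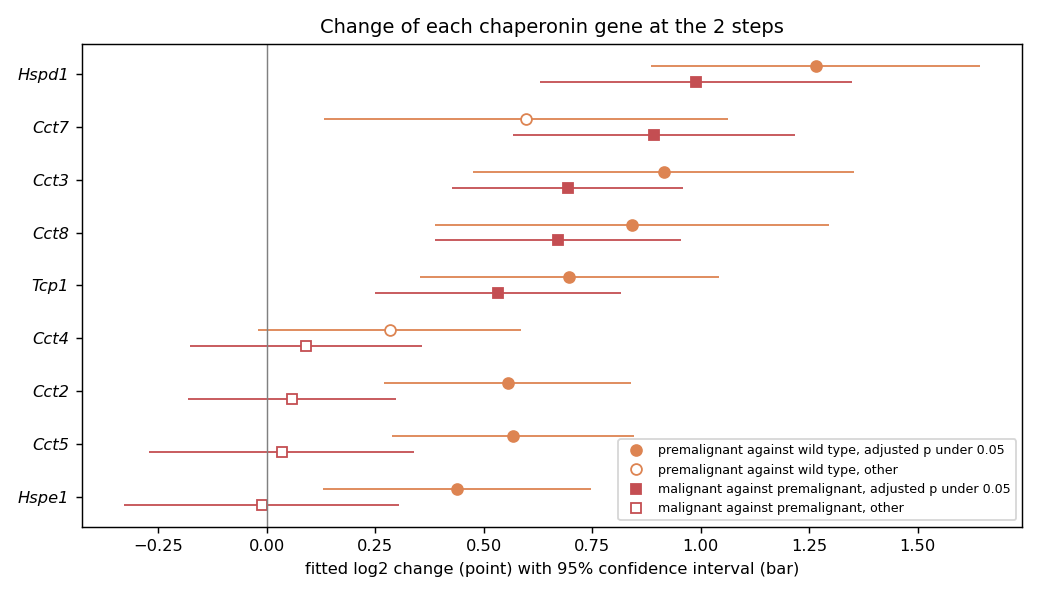
Fitted log2 change of each chaperonin gene (x axis) in premalignant against wild type arrays (circles) and in malignant against premalignant arrays (squares), with 95% confidence intervals as bars and filled symbols for an adjusted p under 0.05. The squares of Hspd1, Cct7, Cct3, Cct8 and Tcp1 lie between 0.53 and 0.99, and those of Cct4, Cct2, Cct5 and Hspe1 near 0.

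Hspd1 in the 13 lymphomas had a lowest level of 10.71, a median of 11.43 and a highest of 12.00. Every lymphoma exceeded the highest premalignant array, 10.68, if only just at the lower end. The log2 change was 0.99 (SE 0.17, limma adjusted p = 0.0002). Cct3 had a lowest of 10.20, a median of 10.60 and a highest of 10.91, and also lay above all premalignant arrays. Its log2 change was 0.69 (SE 0.13, limma adjusted p = 0.0003). Hspd1 and Cct3 were the members whose groups did not overlap at this step, against 6.28% of all genes that separated upward.

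Cct7 had a lowest of 9.62, a median of 10.09 and a highest of 10.34 in lymphomas. In 12 of the 13 it exceeded the highest premalignant array, and the log2 change was 0.89 (SE 0.16, limma adjusted p = 0.0002). Cct8 had a lowest of 9.32, a median of 10.08 and a highest of 10.29, with 12 of 13 lymphomas above the premalignant range and a log2 change of 0.67 (SE 0.14, limma adjusted p = 0.0006). Tcp1 had a lowest of 10.56, a median of 10.86 and a highest of 11.47. Only 8 of 13 lymphomas passed the highest premalignant array of Tcp1, and the log2 change was 0.53 (SE 0.14, limma adjusted p = 0.0040). Centred on the hybridisation spikes, Tcp1 had 0.63 and was not called (adjusted p = 0.0633).

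The other members exceeded the premalignant range in few lymphomas: 3 of 13 for Cct2, Cct5 and Hspe1, and 5 of 13 for Cct4. Cct2 had a lowest of 11.12, a median of 11.37 and a highest of 11.81 in lymphomas, and its fold had a 95% confidence interval of 0.882 to 1.23 (limma adjusted p = 0.709). For Cct5 the values were 10.50, 10.78 and 11.68, with a fold interval of 0.829 to 1.27 (limma adjusted p = 0.869). The highest Cct5 value belongs to malignant replicate 1, and without that array the log2 change was -0.04. Cct4 had 10.22, 10.64 and 11.02, with a fold interval of 0.885 to 1.28 (limma adjusted p = 0.596). Hspe1 had 10.03, 10.46 and 11.07, and its log2 change was -0.01 (SE 0.15, limma adjusted p = 0.962). The interval of Hspe1 ran from 0.797-fold to 1.24-fold, so for these 4 genes the data leave room for changes of up to 1.28-fold upward and to 0.797-fold downward.

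Whether members differed from each other was tested directly, by taking the difference of 2 genes on the same array and comparing it between groups with an exact permutation test over arrays (two-sided, added after the levels were seen). There are 36 pairs of members, and p-values were adjusted over the 36 (Benjamini-Hochberg). Between malignant and premalignant arrays 22 pairs passed, 13 of them among the 21 pairs of CCT genes. All 12 pairs that set Tcp1, Cct3, Cct7 or Cct8 against Cct2, Cct4 or Cct5 were among these, and the remaining one was Tcp1 with Cct7 (difference -0.36, exact permutation test, adjusted p = 0.0239). As examples, Cct7 rose by 0.86 more than Cct5 on the log2 scale (exact permutation test, adjusted p = 0.0012) and Cct3 by 0.60 more than Cct4 (exact permutation test, adjusted p = 0.0072). With the mean of all kept probe sets of a gene in place of the brightest, the pairs Cct3 with Cct4 (adjusted p = 0.197), Cct2 with Cct3 (0.0838), Tcp1 with Cct4 (0.180) and Tcp1 with Cct7 (0.273) no longer passed. Without premalignant replicate 1 the pair Cct4 with Cct8 missed the threshold (adjusted p = 0.0697), and without replicate 4 or 5 the pair Tcp1 with Cct7 did (adjusted p = 0.0536 and 0.0969). Between premalignant and wild type arrays 8 pairs passed, 2 of them among CCT genes (Tcp1 with Cct4 and Cct3 with Cct4), all at the smallest p that 126 splits allow. With any single array left out none of the 8 passed. There 56 or 70 splits allow no p below 0.0179 or 0.0286, which passes the adjustment only if many pairs reach it, and too few did.

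The genes of the barrel and the lid of the mitochondrial chaperonin parted at both steps, at the first in a test that passed only with all arrays. Hspd1 minus Hspe1 on the same array lay between -1.40 and -0.75 in wild type, between -0.47 and 0.12 in premalignant and between 0.61 and 1.26 in malignant arrays, with no overlap between any stages. The zero of this difference has no meaning, since it sets one probe set against another, and its shifts are what was tested. The shift was 0.83 from wild type to premalignant (exact permutation test, adjusted p = 0.0357, n = 4 and 5), and between 0.69 and 0.91 with any single array left out. In none of these 9 cases did the shift pass (exact permutation test, adjusted p 0.0643 to 0.129). From premalignant to malignant it was 1.00 (exact permutation test, adjusted p = 0.0011, n = 5 and 13), and its unadjusted p, 0.0001, is the smallest that the splits allow. From wild type to malignant it was 1.83 (exact permutation test, adjusted p = 0.0011).

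**Figure D3:**
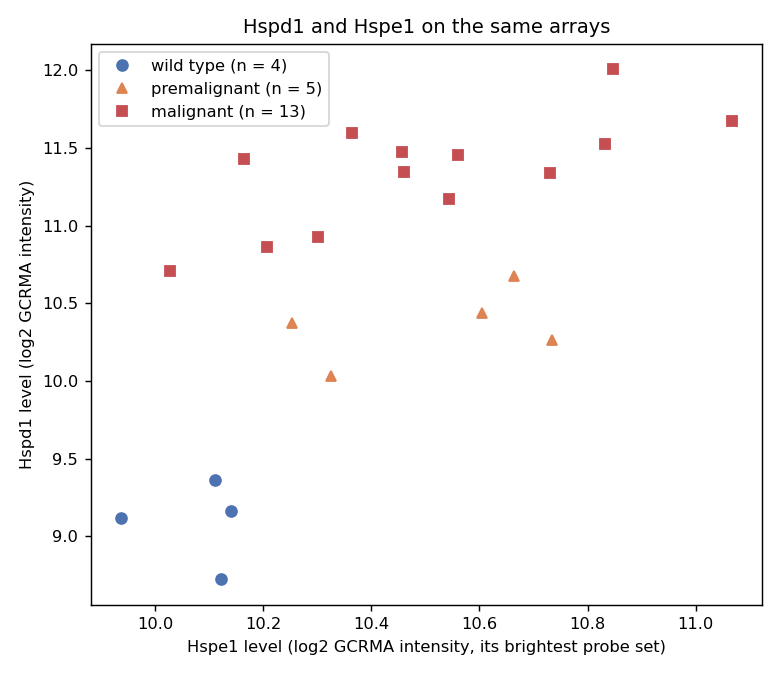
Level of Hspd1 (y axis) against level of Hspe1 (x axis), both log2 GCRMA intensity, 1 point per array. The 3 stages form separate levels of Hspd1, while the malignant points span 10.03 to 11.07 of Hspe1, a range that holds all 5 premalignant points.

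The third comparison joins the ends of the series. In malignant against wild type arrays all 9 members were called higher, where 31.8% of all genes were, and the change relative to wild type spread from 1.30-fold to 4.77-fold. Hspd1 was 4.77-fold higher (95% confidence interval 3.61 to 6.30), Cct3 3.05-fold (2.40 to 3.86), Cct8 2.85-fold (2.22 to 3.66), Cct7 2.81-fold (2.26 to 3.48) and Tcp1 2.35-fold (1.93 to 2.86). Cct2 was 1.53-fold higher (1.27 to 1.85), Cct5 1.52-fold (1.20 to 1.92), Hspe1 1.34-fold (1.07 to 1.70) and Cct4 1.30-fold (1.07 to 1.57). The groups did not overlap for 7 members, against 18.3% of all genes upward. They overlapped for Cct4, with 10 of 13 lymphomas above the highest wild type array, and for Hspe1, with 12 of 13. The call of Cct4 was lost without wild type replicate 1 (limma adjusted p = 0.0671). That of Hspe1 was lost without wild type replicate 3 (limma adjusted p = 0.0866) or replicate 4 (limma adjusted p = 0.0519).

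Cct2, Cct3, Cct4, Cct7 and Hspe1 are measured by several kept probe sets. Probe sets whose names end in x_at or s_at can pick up related transcripts, processed copies included, so single values of them are less certain. The 3 probe sets of Cct2 were all called higher at the first step and none at the second. Of the 4 kept probe sets of Cct3 all were called higher at the first step, and 3 at the second with log2 changes of 0.59, 0.69 and 0.88. The fourth, 1449645_s_at, had -0.10 there. Both probe sets of Cct7 were called at the second step. At the first step 1415817_s_at was called (0.90, limma adjusted p = 0.0243) while 1415816_at, the brighter, was not. None of the 4 kept probe sets of Cct4 was called at either step, and all 4 were called higher in malignant against wild type arrays (limma adjusted p 0.0036 to 0.0260). The weakest of these calls was that of 1456082_x_at. Its wild type replicates 1 and 3 had 5.29 and 5.32. Replicates 2 and 4 (5.81 and 5.86) lay within the malignant range of 5.81 to 6.26. For 1433447_x_at and 1438560_x_at of Cct4, wild type replicate 2 (9.14 and 7.32) and premalignant replicate 1 (9.55 and 7.91) were the lowest of their groups.

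The probe sets of Hspe1 differed in their calls. The brightest, 1450668_s_at, was called in 2 comparisons, while 1422579_at was called in none, with log2 changes of 0.34, -0.28 and 0.05 (limma adjusted p = 0.106, 0.153 and 0.797). With the mean of both, Hspe1 was not called in malignant against wild type arrays (0.24, limma adjusted p = 0.194). On either probe set it was not called higher at the second step. 5 probe sets (2 of Cct3, 2 of Cct4 and 1 of Cct8) stayed under the filter, with group means between 2.12 and 3.35, and were not tested.

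**Figure D4:**
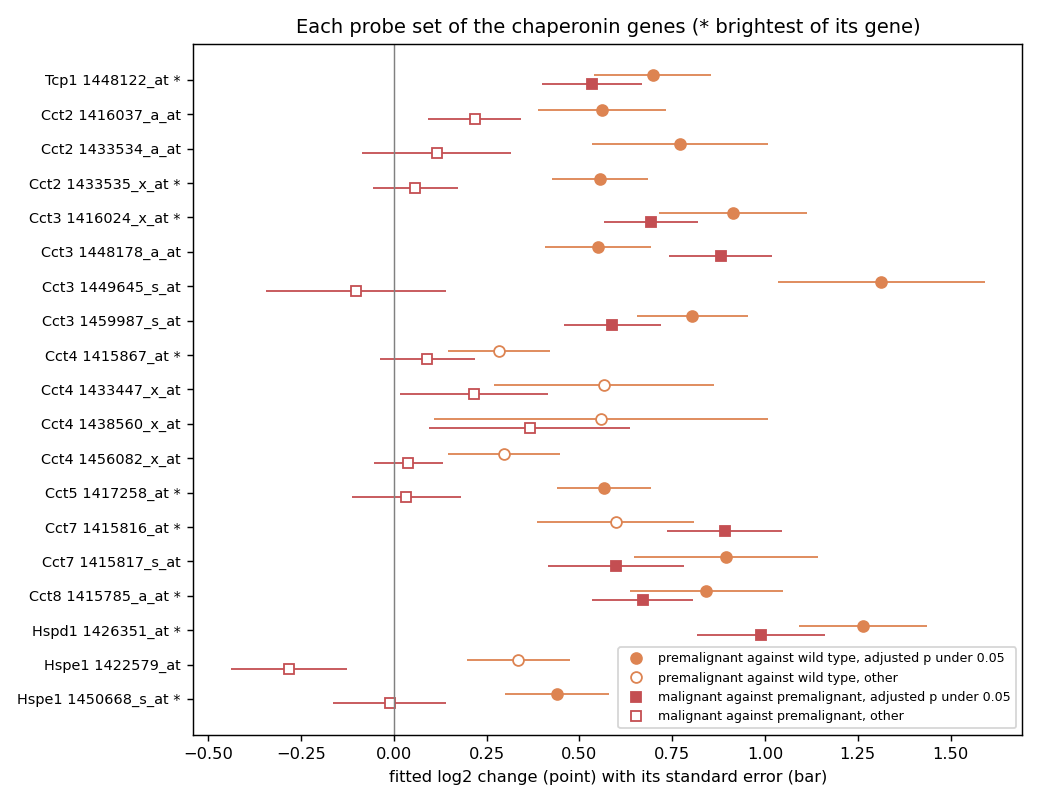
Fitted log2 change (x axis, bars are standard errors) of the 19 kept probe sets of the chaperonin genes at the first step (circles) and the second (squares), filled where the adjusted p is under 0.05 over all kept probe sets. The Cct3, Cct7, Cct8, Tcp1 and Hspd1 squares lie right of 0.5 except Cct3 1449645_s_at at -0.10.

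Other genes of the folding pathway were read from lists chosen with earlier results of these data known. The remaining CCT subunit, zeta, has 2 genes. Cct6a was called higher at the first step (log2 change 0.92, limma adjusted p = 0.0471) and the second (0.55, limma adjusted p = 0.0274), while Cct6b stayed under the filter. The first call of Cct6a was lost without any of 8 of the 9 single arrays, all but premalignant replicate 1 (0.66 to 1.03, adjusted p 0.0569 to 0.114). The second was lost without premalignant replicate 1 (0.31, adjusted p = 0.127).

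Prefoldin and the phosducin-like and tubulin cofactors work with CCT. At the first step 0 of 13 tested genes of this list were called in either direction by limma, 2 had an unadjusted p under 0.05, and the median log2 change was 0.00. Over all genes, 12.7% were called higher and 14.1% lower at the first step, and 24.8% and 17.3% at the second. In malignant against wild type arrays the shares were 31.8% and 29.7%. At the second step 2 of the 13 listed genes were called higher and 3 lower, counts not far from the shares over all genes. Pfdn6 rose (0.87, limma adjusted p = 0.0013), and Pfdn5 (-0.86, limma adjusted p = 0.0017) and Pdcl (-0.79, limma adjusted p = 0.0026), a phosducin-like gene, fell. Pfdn5 and Pfdn6 encode subunits of the same prefoldin complex.

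Of 15 tested genes of CCT clients, 4 were called higher and 1 lower at the first step (12.7% and 14.1% of all genes were), and 2 higher and 5 lower at the second (24.8% and 17.3%). The list's median log2 changes were 0.32 and -0.01. Cdc20, an activator of the anaphase-promoting complex, rose at both, by 2.01 (limma adjusted p = 0.0003) and 1.03 (limma adjusted p = 1.6e-05) on the log2 scale. It is expressed in dividing cells, and of the 15 marker genes of these, which do not include it, 14 and 12 were called higher at the same steps. The tubulin gene Tubb2b rose at the first step (1.00, limma adjusted p = 0.0043) and fell at the second (-0.82, limma adjusted p = 0.0107). Tubb5 rose at the first (1.15, limma adjusted p = 0.0199), a call lost without wild type replicate 1 (0.98, adjusted p = 0.0619). Actb, the cytoplasmic actin, fell at the second step (-0.69, limma adjusted p = 0.0005), and it is the transcript whose 3′ and 5′ ends differed more in malignant arrays. Actr3, an actin-related protein, was called lower at the first step (-0.47, limma adjusted p = 0.0313), a call lost in 7 of 9 cases when an array was left out (-0.50 to -0.42, adjusted p 0.0530 to 0.0780).

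In mitochondria, 3 of 15 other chaperone and protease genes were called higher at the first step (12.7% of all genes were), and 8 higher and 2 lower at the second (24.8% and 17.3% of all genes). The list's median log2 changes were 0.29 and 0.56. Hspa9, the mitochondrial HSP70, rose at both (0.93, limma adjusted p = 0.0122, and 1.05, limma adjusted p = 0.0002), and was higher by 1.98 in malignant against wild type arrays, beside 2.25 for Hspd1. Trap1, the mitochondrial HSP90, had 0.74 (limma adjusted p = 0.0197), a call lost when 1 of 3 arrays, wild type 3, wild type 4 or premalignant 3, was dropped (0.64 to 0.72, adjusted p 0.0514 to 0.0592). Phb2, a prohibitin, had 0.67 (limma adjusted p = 0.0277), lost when 1 of 5 arrays was dropped, wild type 2 or 3 or premalignant 2, 3 or 4 (0.55 to 0.66, adjusted p 0.0542 to 0.0726), and with the mean of its probe sets (0.39, adjusted p = 0.0733). Genes of proteases were called at the second step: Lonp1 (1.34, limma adjusted p = 6.9e-05) and Afg3l2 (1.28, limma adjusted p = 4.2e-05) rose, and Yme1l1 (-1.26, limma adjusted p = 1.9e-06), an inner membrane protease, fell. At the first step their log2 changes were 0.24, -0.07 and 0.08, and none was called.

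Of 22 tested genes of the cytosolic HSP70 and HSP90 machinery, 3 were called higher at the first step (12.7% of all genes were), and 11 higher and 2 lower at the second (24.8% and 17.3% of all genes). The first-step count is near the share over all genes, and the list's median log2 changes were 0.25 and 0.40. Fkbp4, a cochaperone of HSP90, rose at both (1.04, limma adjusted p = 0.0062, and 0.97, limma adjusted p = 0.0003), and so did Hspa14, an HSP70 of the ribosome (0.80, limma adjusted p = 0.0072, and 0.40, limma adjusted p = 0.0105). Fkbp5, another cochaperone of HSP90, rose at the second step (1.82, limma adjusted p = 0.0001), as did Dnajc2 (1.05, limma adjusted p = 0.0005). Bag2, a nucleotide exchange factor of HSP70, rose at least 2.63-fold there (limma adjusted p = 0.0005), a bound because its premalignant mean lay under the filter level of log2 4. Bag2 was also among the calls of the first step (1.08, limma adjusted p = 0.0008), where both its group means, 3.83 and 2.74, lay under that level. Dnajb1, a heat-inducible HSP40, fell at the second step (-0.69, limma adjusted p = 0.0226), a call lost without premalignant replicate 1 (-0.49, adjusted p = 0.0977) or 4 (-0.67, adjusted p = 0.0536). Hspa1b, the heat-inducible HSP70, was called lower in malignant than in wild type arrays (-1.98, limma adjusted p = 0.0266). Its call was lost without wild type replicate 3 (-1.02, adjusted p = 0.213) or 4 (-1.49, adjusted p = 0.128). Centred on the hybridisation spikes, the falls of Pfdn5, Pdcl, Tubb2b, Actb, Dnajb1 and Hspa1b kept their sign and did not pass (adjusted p 0.0582 to 0.144), and that of Actr3 was -0.11 (adjusted p = 0.864).

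**Figure D5:**
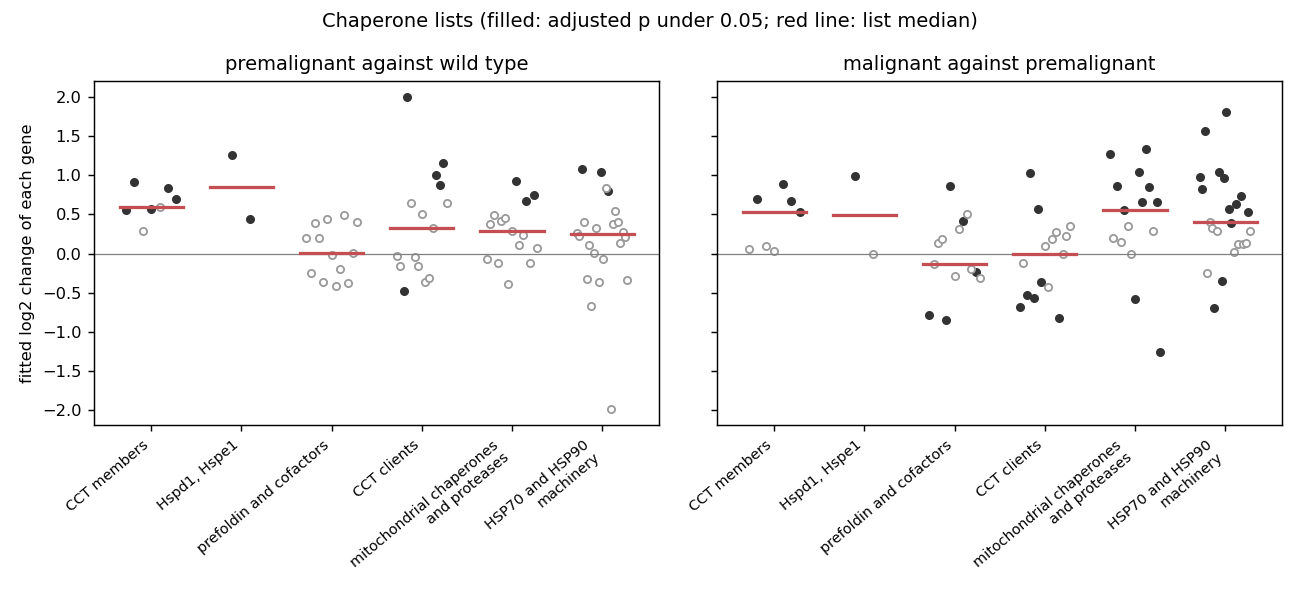
Fitted log2 change (y axis) of each tested gene of the chaperone lists at the first step (left) and the second (right), filled where the adjusted p is under 0.05, with a red line at the list median. The CCT members have medians of 0.60 and 0.53, and the prefoldin and cofactor list has 0.00 and -0.13.

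Over the 13 lymphomas the relations between members were of both signs. Pearson's r between pairs of members ranged from -0.34 to 0.75 with a median of 0.23, and 30 of 36 were above 0. In a family of 54 relations, which adds each member with Myc and with the beta-actin difference, 0 passed a Benjamini-Hochberg adjusted p of 0.05 by permutation tests with Pearson's r or Spearman's rho, and 5 had an unadjusted p under 0.05 for r. The strongest with Hspd1 were Cct5 (r = 0.74, rho = 0.68, permutation p = 0.0025 and 0.0130, adjusted p of r = 0.0929, r = 0.72 without the 2 arrays farthest from the median) and Hspe1 (r = 0.72, rho = 0.68, permutation p = 0.0051 and 0.0134, r = 0.57 without 2 arrays). Tcp1 with Cct5 had r = 0.75 (rho = 0.49, permutation p = 0.0052 and 0.0924), which fell to 0.26 without malignant replicates 1 and 13 and so rests on them. Myc with the members ranged from -0.56 for Hspe1 (rho = -0.47, permutation p = 0.0437 and 0.110, r = -0.34 without 2 arrays) to 0.55 for Tcp1 (rho = 0.55, permutation p = 0.0535 and 0.0556, r = 0.35 without 2 arrays). The beta-actin difference had r between 0.01 and 0.37 with the members. These relations depend on the scale: with arrays centred on the hybridisation spikes, 37 of the 54 passed.

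Taking each array relative to its stage mean, over all 22 arrays and with no test, the genes most like the mean of the 7 CCT members were Mcrip2 (r = 0.87), Uck2 (0.86), a uridine-cytidine kinase, Ndufs1 (0.83), a subunit of respiratory complex I, Atp5g1 (0.81), a subunit of ATP synthase, and Cbwd1 (0.81), among 6428 genes. Those most like the mean of Hspd1 and Hspe1 were Eef1d (0.84), an elongation factor subunit, Stip1 (0.84), the adaptor between HSP70 and HSP90, Dut (0.82), the dUTPase, Cdc123 (0.81) and Acot7 (0.81). These points share arrays, so array-wide differences enter every r. Each CCT gene set against the mean of the other 6 gave r from -0.04 for Cct3 and 0.04 for Cct8 to 0.70 for Tcp1, the last at rank 30 of 6431 genes. Hspd1 and Hspe1 had r = 0.64 with each other within stages.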

How the data were processed

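RNA of 22 samples was hybridised to MOE430A arrays, 1 per sample. The deposited values are linear intensities, made by the authors with GCRMA per the submitters' processing notes. The sources used here give neither its version nor whether the arrays were run through it as 1 set. GCRMA corrects each probe for a background modelled on its sequence and brings the arrays to a common distribution, which can remove an overall shift in RNA between stages. Log2 of the deposited intensity was taken here. Symbols came from GEO's platform annotation: 20380 probe sets had 1 symbol, 691 several and 1555 none, besides 64 controls. Probe sets above log2 4 on at least 4 arrays were kept (10789), and each of 6437 genes was tested through its brightest one. Each pair of stages was fitted on its own arrays (limma 3.58.1, R 4.3.3; lmFit, then eBayes; two-sided), and p-values were adjusted over all genes by the Benjamini-Hochberg method. Correlations used 100000 permutations (two-sided). The fits were tested on simulated data. The number of arrays limits the precision.

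The members and lists were chosen with earlier results of these data known. Named genes are the members, Myc, the remaining CCT subunit genes and the 5 genes most like each group of members. From each list and comparison they are up to 3 called genes with the largest change in the list's more frequent direction and 1 in the other, and only part of these is printed. Alternatives were no filter, centring on array medians or hybridisation spikes, quantile normalization, a pseudocount of 16, the mean of probe sets, every probe set as a feature, 1 fit over all groups, array weights, a replicate block and each array left out. Promoter sequences are RefSeq's for GRCm38.p6.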

Additional observations from a re-analysis of the deposited data

Results flagged for a closer look

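Each kept probe set of the members was examined in the wild type and the premalignant group, 38 groups of arrays in all. In 6 of them the lowest or highest array stood apart from the others by more than Dixon's 95% limit, where chance gives about 1 group in 20. For the Cct3 probe set 1459987_s_at, wild type replicate 1 was lowest at 7.84, with the other 3 arrays at 8.06. For the Cct4 probe sets 1433447_x_at and 1438560_x_at, premalignant replicate 1 was lowest, at 9.55 below a next value of 10.52 and at 7.91 below 9.26. For the Cct4 probe set 1456082_x_at, premalignant replicate 2 was highest at 5.89, against 5.87 for the next. For Hspe1, wild type replicate 4 was lowest at 6.84 on 1422579_at, where the next was 7.09, and wild type replicate 3 was lowest at 9.94 on 1450668_s_at, where the next was 10.11. The last of these is the probe set through which Hspe1 was tested, and its call at the first step had an adjusted p of 0.106 without that array (limma).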

How the results depend on the processing

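Over 10 other settings of the processing the number of members called was 5 to 8 at the first step, 4 to 5 at the second and 7 to 9 in malignant against wild type arrays, and with single arrays left out it was 6 to 8, always 5, and 8 to 9. Hspd1 and Cct3 were called under every one of these settings in all 3 comparisons. The counts over all genes moved more. Centred on the hybridisation spikes, the median log2 change of all genes was 0.32, 0.19 and 0.51, against -0.05, 0.09 and 0.04. On that scale 922 genes were called at the first step (807 higher, 115 lower, against 818 and 907), 1716 at the second (1121 and 595, against 1597 and 1114), and 3372 in malignant against wild type arrays (2621 and 751, against 2045 and 1911). With no filter 12393 genes were tested. Of these, 4929 were called at the second step (1640 higher, 3289 lower, against 1597 and 1114). In malignant against wild type arrays 7921 were called (2124 and 5797, against 2045 and 1911). The added calls were thus mostly lower ones, and the cause was not tested. With every probe set as a feature 2635, 4658 and 6557 were called. Cct5 at the second step lay between -0.036 and 0.063 with single arrays left out, and Hspe1 between -0.077 and 0.043. Hspe1 was 0.0003 with quantile normalization, 0.088 on the spike scale and 0.0026 with the replicate block. On the spike scale 37 of the 54 relations among lymphomas passed, and Myc with Hspe1 had r = 0.14; the cause was not tested. The tests of pairs at the first step gave 0 to 0 passing pairs with single arrays left out, and a shift of Hspd1 against Hspe1 of 0.69 to 0.91. Relative to their stage means, samples with the same replicate number had r from -0.11 to 0.21 with each other. Each of these values rests on a single pair of arrays from small groups, so they cannot exclude that the numbers pair the samples. The replicate block compares only arrays whose number occurs in both groups. It leaves out the malignant arrays numbered above 5 at the second step and above 4 against wild type. At the first step premalignant replicate 5 drops out. With the replicate block 1418, 1677 and 2905 genes and 6, 4 and 7 members were called. At the first step Cct8 (0.85, adjusted p = 0.0602) and Hspe1 (0.49, adjusted p = 0.0762) lost their call with the block and Cct7 gained one (0.75, adjusted p = 0.0176). Cct8 lost it at the second step (0.55, adjusted p = 0.109), and Hspe1 (0.36, adjusted p = 0.180) and Cct4 (0.29, adjusted p = 0.220) in malignant against wild type arrays (limma). For the named genes of the lists, 46 values with an array left out and 34 under other settings lost their call, against 704 and 446 that did not, and 0 turned direction. With no filter the first-step calls of Cct6a (adjusted p = 0.124), Phb2 (0.0563) and Tubb5 (0.0609) were among those lost (limma), and with the mean of probe sets the second-step calls of Actb (0.0663) and Pdcl (0.0524). The arrays per stage, 4 at the fewest, limit what the first step can show.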
